A study of Mus musculus with 16 samples.

Results

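Neonatal brain of mice null or heterozygous for connexin 43 was set against neonatal brain of mice null for connexin 32. The comparison takes the mean of the Connexin43 null and the Connexin43 heterozygous group means and subtracts the Connexin32 null mean, so a difference from wild type that all lines share cancels. It uses 12 of the 16 arrays of the study: 4 of Connexin43 null brain, 4 of Connexin43 heterozygous brain and 4 of Connexin32 null brain, called Cx43 null, Cx43 heterozygous and Cx32 null here. Per the labels, all 3 lines were C57BL mice and neonatal (for Cx32 null the descriptions give this and the titles leave it out), and no treatment is stated for any group. The remaining 4 arrays, of wild-type brain, were not fitted and are quoted only as a description. Neither the age in days, nor the kind of null allele, nor whether an array holds 1 animal or a pool is stated, so the p-values rest on a spread between samples that may be technical. Each brain sample was labelled with Cy3 and hybridised to a 2-colour cDNA array beside a Cy5 reference pooled from adult organs of the same strain. Every level below is the log2 ratio of a spot after its array was centred on its median, and every difference is between group means of such ratios. The base and the numerator of the ratio are not stated. Folds therefore hold if the values are log2, and "higher" and "lower" hold if brain is the numerator, which is likely because the neuron markers stood above the array median and the liver markers below it on all 12 arrays.

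Connexins are membrane proteins that assemble in rings, and rings of adjoining cells dock to form gap junctions that pass ions and small metabolites. Connexin 43, encoded by Gja1, is the main connexin of astrocytes and is also made by radial glia, meninges and heart. Mice without it die around birth from a malformed outflow tract of the heart, which limits Cx43 null brain to late embryos and newborns. Connexin 32, encoded by Gjb1 on the X chromosome, is a connexin of oligodendrocytes, Schwann cells and liver, and mice without it are viable. The comparison asks which transcripts separate brain null or heterozygous for the astrocyte connexin from brain null for the oligodendrocyte connexin.

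The 12 arrays gave values for 21010 to 24819 of 28704 spots. After a filter for at least 3 values in every group, 14500 transcripts were tested, of which 8748 were named genes and 5752 were spots without a single symbol. The number of arrays limits the precision, and the median standard error of the comparison was 0.162 log2 units. Before any result, 2 arrays stood apart. Cx43 null replicate 1 correlated 0.882 with the mean of the other Cx43 null arrays but 0.909 with the wild-type mean, and Cx43 null replicate 3 correlated 0.872 with its own group, against 0.897 to 0.948 for the other arrays. In 1 print block of 598 spots, Cx43 null replicate 2, Cx43 heterozygous replicate 4 and Cx32 null replicate 1 were displaced by 1 row of spots: their correlations with the other arrays were 0.35 to 0.538 in place and 0.658 to 0.668 after a shift by a row. The median SD between arrays was 0.27 in Cx43 null, 0.20 in Cx43 heterozygous and 0.214 in Cx32 null brain.

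In both Cx43 lines against Cx32 null brain, 124 of 14500 transcripts passed an adjusted p of 0.05, which is 0.855% of those tested. Of these, 87 were higher in the Cx43 lines (0.6%) and 37 were lower (0.255%). The named genes among them were 55, with 34 higher and 21 lower, and 49 of the 55 were read by a single spot. At an unadjusted p under 0.05 the share was 13.6%. The absolute difference of the passing transcripts ran from 0.538 to 3.37 log2 units with a median of 0.956. The values of the Cx43 lines (up to 8) and of Cx32 null brain (up to 4) did not overlap in 37 of the 55 named genes, and in 2.32% of all transcripts tested. Missing values were left out of these counts, and fewer values make non-overlap easier. The calls rested on all 12 arrays: leaving out 1 array at a time gave 10 calls without Cx32 null replicate 2, 36 without Cx43 null replicate 2 and 42 without Cx43 heterozygous replicate 2, and 125 without Cx43 null replicate 4. Without Cx43 null replicates 1 and 3 there were 39 calls, 31 of them among the 124. Of the 55 named genes, 14 passed without those 2 arrays, and all 55 kept their sign.

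Gja1, the gene altered in the Cx43 lines, was 3.26-fold lower in them than in Cx32 null brain. Its levels on replicates 1 to 4 were -0.60, -1.71, -2.10 and -2.92 in Cx43 null brain and -1.09, -1.27, -1.25 and -1.85 in Cx43 heterozygous brain. In Cx32 null brain they were 0.13, 0.10, -0.07 and 0.27, so every array of the Cx43 lines lay below every Cx32 null array. The difference was -1.71 ± 0.31 log2 (SE, 8 against 4 arrays, adjusted p = 0.0271). Cx43 null brain differed from Cx32 null by -1.94 (adjusted p = 0.053) and Cx43 heterozygous brain by -1.47 (adjusted p = 0.0472). The null and heterozygous arrays overlapped, and their difference of -0.47 ± 0.35 was not called (adjusted p = 0.495). A ratio does not show whether signal stood above background on this spot, and the position of the spot along the gene is not known, so the spot alone does not check the labels. The adjusted p was 0.00961 without Cx43 null replicates 1 and 3. It rose above 0.05 without Cx43 null replicate 2 (0.0527) and without Cx32 null replicate 1 (0.0588), 2 (0.11) or 4 (0.0698). In whole tissue, fewer cells of a type and less RNA per cell cannot be told apart, here and in all results that follow. On the wild-type arrays Gja1 read 2.47, 1.13, 1.48 and 1.17, above all 12 arrays of the 3 lines.

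The window around the Gja1 start shows the reference sequence of the altered gene. It is taken from RefSeq at chr10:56377050-56377349 (GRCm38.p6, plus strand, 250 bases before the start and 50 after) and holds 1 match to TGAGTCA, an AP-1 motif, in capitals. Both strands were searched, and the motif begins 19 bases before the start. It occurs in 5.2% of the 32851 promoter windows of that length.
Gja1: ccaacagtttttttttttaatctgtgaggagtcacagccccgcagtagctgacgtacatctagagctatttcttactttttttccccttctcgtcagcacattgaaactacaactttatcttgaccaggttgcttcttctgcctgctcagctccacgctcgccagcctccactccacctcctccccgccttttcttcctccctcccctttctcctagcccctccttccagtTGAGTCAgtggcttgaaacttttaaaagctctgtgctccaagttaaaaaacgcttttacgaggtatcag

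Of the other connexins and pannexins only Gjb5 and Panx1 could be tested, and no spot is named Gjb1, so connexin 32 itself was not measured. Gjb5, a connexin of skin and placenta, differed by -0.21 ± 0.22 (adjusted p = 0.736), with a 95% interval of -0.69 to 0.28. Panx1, which forms large-pore channels in single membranes, was not called over both lines (0.40 ± 0.26, adjusted p = 0.536), and the lines went apart. It read 1.96, 2.07, 1.69 and 2.44 in Cx43 null brain and 4.43, 2.75, 3.74 and 4.26 in Cx43 heterozygous brain, with no overlap. The Cx32 null arrays, at 2.63, 2.63, 2.66 and 2.13, lay below all heterozygous arrays and overlapped the null arrays. Cx43 null minus heterozygous was -1.76 ± 0.30 (adjusted p = 0.0104), and heterozygous minus Cx32 null was 1.28 (adjusted p = 0.0434). Without Cx43 null replicates 1 and 3 the former was -1.54 (adjusted p = 0.113).

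Cnst encodes consortin, a receptor of the trans-Golgi network that helps connexins reach the plasma membrane. It was 1.86-fold higher in the Cx43 lines. Its levels were 1.24, 0.62 and 0.52 in Cx43 null brain, without a value on replicate 3, and 0.64, 1.03 and 1.30 in Cx43 heterozygous brain, without a value on replicate 1. The Cx32 null arrays read 0.03, -0.18, 0.08 and 0.04, below all 6 others. The difference of 0.90 ± 0.18 (adjusted p = 0.0422) was not called without Cx43 null replicates 1 and 3 (0.78, adjusted p = 0.0682), nor in 9 of the 12 fits that left out 1 array. Among the 33 measured junction partners and scaffolds, which tie gap junctions to tight and adherens junctions and to kinases, none passed in either direction. Their median difference was 0.05 beside -0.01 for all transcripts, and 15.2% had an unadjusted p under 0.05 beside 13.6%. The 95% interval lay within 1 log2 unit of 0 for 32 of the 33.

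The genes nearest the altered loci were counted beside all transcripts, of which 0.855% passed and 13.6% had an unadjusted p under 0.05. Among 50 measured neighbours of Gja1, 25 on each side on chromosome 10, 1 passed and was higher, and 10 had an unadjusted p under 0.05. This was Cep57l1, related to a centrosome and microtubule protein, at 0.73 ± 0.15 (adjusted p = 0.0436). Among 50 measured neighbours of Gjb1 on the X chromosome, none passed and 7 had an unadjusted p under 0.05. The medians of the neighbours were 0.05 around Gja1 and -0.01 around Gjb1.

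The largest fall among the named genes was that of Hddc3, an HD-domain hydrolase of nucleotides, which was 3.43-fold lower in the Cx43 lines. It read 0.08, 0.16, 0.17 and -0.17 in Cx43 null brain and 0.20, -0.32, -0.05 and -0.27 in Cx43 heterozygous brain. The Cx32 null arrays read 1.05, 1.75, 2.14 and 2.08, all above both Cx43 lines. The difference was -1.78 ± 0.19 (adjusted p = 0.000845) and passed in all 12 fits that left out 1 array, and without Cx43 null replicates 1 and 3 (-1.81, adjusted p = 0.00961). Cx43 null minus Cx32 null was -1.70 (adjusted p = 0.00626) and heterozygous minus Cx32 null -1.86 (adjusted p = 0.000758). The wild-type arrays, at -0.18, 0.15, -0.26 and -0.11, lay in the range of the Cx43 lines.

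Pglyrp1, a secreted protein that binds bacterial peptidoglycan, had the largest rise among the named genes picked for no overlap, at 2.75-fold. Its levels were -0.16, -0.19, 0.16 and -0.61 in Cx43 null brain and 0.11, -0.01, -0.11 and -0.45 in Cx43 heterozygous brain. The Cx32 null arrays were lower, at -1.05, -2.13, -1.20 and -2.09, without overlap. The difference was 1.46 ± 0.22 (adjusted p = 0.0122), and it was 1.29 without Cx32 null replicate 2 (adjusted p = 0.0669). Without Cx43 null replicates 1 and 3 it was 1.36 (adjusted p = 0.0528). Both lines carried it, with 1.42 for Cx43 null (adjusted p = 0.0488) and 1.51 for heterozygous (adjusted p = 0.0084) minus Cx32 null.

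Llgl2, a regulator of epithelial polarity, was 2.43-fold higher. It read -1.80, -2.17, -1.39 and -2.01 in Cx43 null brain, -0.86, -0.93, -1.27 and -1.50 in Cx43 heterozygous brain and -3.34, -2.42, -2.36 and -2.98 in Cx32 null brain. The groups of the Cx43 lines and Cx32 null did not overlap, and the difference of 1.28 ± 0.21 (adjusted p = 0.0154) passed in all 12 fits that left out 1 array. It missed the threshold when Cx43 null replicates 1 and 3 were both left out (1.16, adjusted p = 0.0568).

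Capg, a protein that caps the growing ends of actin filaments, was 2.43-fold higher in the Cx43 lines. Its levels were -0.74, -2.15, -1.78 and -1.95 in Cx43 null brain, -1.39, -1.33, -1.92 and -1.69 in Cx43 heterozygous brain and -3.40, -2.67 and -2.63 in Cx32 null brain, without a value on replicate 3. The Cx32 null arrays lay below the rest. The difference was 1.28 ± 0.27 (adjusted p = 0.0487), close to the threshold, and was not called without Cx43 null replicates 1 and 3 nor in 10 of the 12 fits that left out 1 array. Capg was the only member called among the 71 measured genes of actin and myosin, beside 0.855% called over all transcripts. The median of that list was -0.03.

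**Figure D1:**
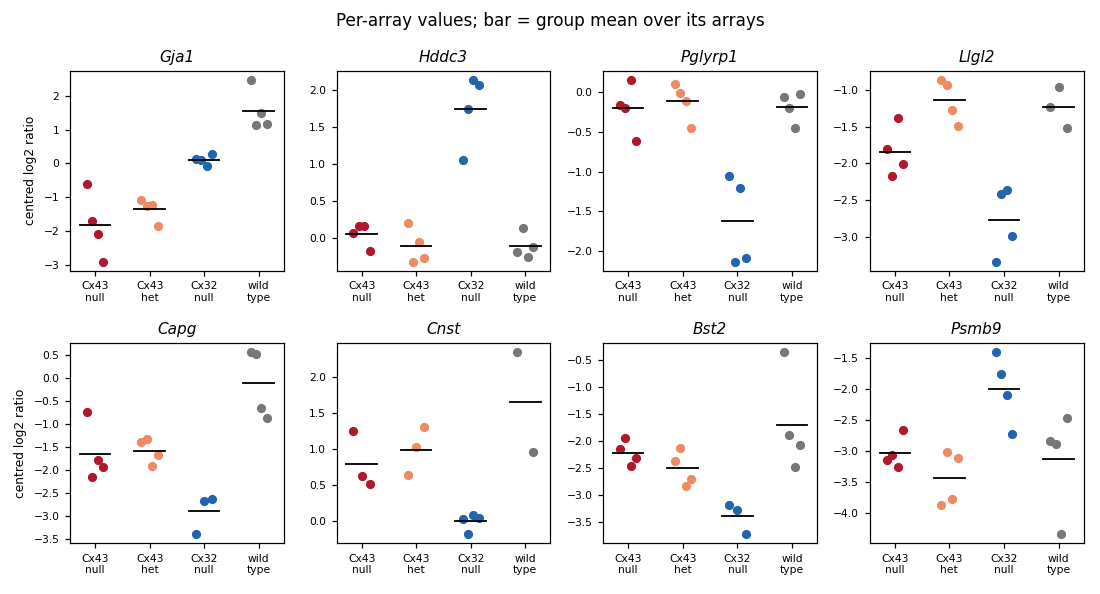
Levels of 8 genes on each array, as the log2 ratio of brain to reference after median centring, by group, with each point an array and each bar the mean over a group's arrays. The Cx32 null arrays of Hddc3 lie at 1.05 to 2.14, above all other groups, and those of Gja1 lie between the wild-type and the Cx43-line arrays; in Psmb9 the lowest Cx32 null array, at -2.72, overlaps the Cx43 lines.

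Among 40 measured genes of innate immunity and antigen presentation, 1 passed as higher and 1 as lower, beside 0.855% of all transcripts called. Bst2, an interferon-induced membrane protein that tethers budding viruses, was 2.05-fold higher in the Cx43 lines. It read -2.15, -1.95, -2.47 and -2.31 in Cx43 null brain, -2.38, -2.14, -2.83 and -2.71 in Cx43 heterozygous brain and -3.19, -3.29 and -3.73 in Cx32 null brain, without a value on replicate 1. No array overlapped, and the difference was 1.04 ± 0.18 (adjusted p = 0.0271). It was 0.99 without Cx43 null replicate 2 (adjusted p = 0.0534), 1.14 without Cx32 null replicate 2 (adjusted p = 0.0932), 0.87 without Cx32 null replicate 4 (adjusted p = 0.0991) and 1.08 without Cx43 null replicates 1 and 3 (adjusted p = 0.0603).

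Psmb9, an interferon-induced catalytic subunit of the immunoproteasome that helps to cut peptides for antigen presentation, was 2.38-fold lower. It read -3.15, -3.07, -3.25 and -2.66 in Cx43 null brain, -3.87, -3.02, -3.78 and -3.11 in Cx43 heterozygous brain and -1.40, -1.76, -2.08 and -2.72 in Cx32 null brain, where replicate 4 overlapped the Cx43 null arrays. The difference was -1.25 ± 0.23 (adjusted p = 0.032). The call was lost without Cx43 null replicate 1, 2 or 3, without Cx32 null replicate 1 or 2, and without both Cx43 null replicates 1 and 3 (-1.17, adjusted p = 0.115). These 2 genes were the only ones called among 40 measured members of the immune list, beside 0.855% called over all transcripts. Of the 40, 20% had an unadjusted p under 0.05, 6 higher and 2 lower, beside 13.6% of all transcripts. The list's median was 0.09. Tap1, the peptide transporter of antigen presentation, stood at 0.73 ± 0.18 and did not pass (adjusted p = 0.0833), and the other 42 of 43 measured proteasome genes did not pass. Iigp1, an interferon-induced GTPase that is on neither list, was 0.84 ± 0.17 higher (adjusted p = 0.0427) and is named after its value was seen. Its difference was -0.38 (adjusted p = 0.626) where spots with at least 2 of 4 values per group were kept.

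The promoter windows of Bst2 and Psmb9 are shown because both genes are known targets of interferon and they moved in opposite directions. They come from RefSeq (GRCm38.p6) and run from 250 bases before the start to 50 after, on the minus strand, at chr8:71537423-71537722 for Bst2 and chr17:34187281-34187580 for Psmb9. Capitals mark GAAANNGAAA, an interferon-response motif, searched on both strands. Bst2 holds 2 overlapping matches, which begin 130 and 124 bases before the start, and Psmb9 holds 0 in this window. A match occurs in 3.44% of the 32851 windows. These are matches of letters only, and binding was not measured.
Bst2: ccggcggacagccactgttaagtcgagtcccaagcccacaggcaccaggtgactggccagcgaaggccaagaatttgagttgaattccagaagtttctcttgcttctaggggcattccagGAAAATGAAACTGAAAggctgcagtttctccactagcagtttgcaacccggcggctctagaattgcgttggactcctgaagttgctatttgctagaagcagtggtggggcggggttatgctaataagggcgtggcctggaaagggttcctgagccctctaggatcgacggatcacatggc
Psmb9: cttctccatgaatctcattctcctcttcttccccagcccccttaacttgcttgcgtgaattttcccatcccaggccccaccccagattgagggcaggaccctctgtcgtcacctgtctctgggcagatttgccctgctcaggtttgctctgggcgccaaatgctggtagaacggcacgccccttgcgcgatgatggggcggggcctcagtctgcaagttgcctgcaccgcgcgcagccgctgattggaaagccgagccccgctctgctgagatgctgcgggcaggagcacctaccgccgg

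Other genes higher in the Cx43 lines without overlap included enzymes and regulators with no shared list. Cdt1, Lpcat2, Ces2g, Moxd1, Ctla2b, Tecrl and Fam151a had values on only 3 of the 4 Cx32 null arrays. Ces2g and Trappc5 had values on only 3 of the 4 Cx43 null arrays. Cdt1, which licenses DNA replication origins, was 1.41 ± 0.28 higher (adjusted p = 0.0419). Cdt1 is not on the list of cell cycle and DNA replication, where none of 86 measured genes passed. Ppip5k1, a kinase that makes inositol pyrophosphates, was higher by 1.34 (adjusted p = 0.0396) and Dgke, a diacylglycerol kinase, by 1.09 (adjusted p = 0.0354). Dgke read 0.79 to 1.82 in Cx43 null, 0.83 to 1.97 in heterozygous and 0.06 to 0.45 in Cx32 null brain. Further enzymes were Lpcat2, which makes platelet-activating factor, at 1.01 (adjusted p = 0.0354), Ces2g, a carboxylesterase, at 0.96 (adjusted p = 0.0452), and Moxd1, a relative of dopamine beta-hydroxylase, at 1.00 (adjusted p = 0.0271). Trappc5, a subunit of the TRAPP complex that tethers vesicles at the Golgi, was higher by 0.95 (adjusted p = 0.0296). Ctla2b, related to the propeptides of cysteine proteases, differed by 1.27 (adjusted p = 0.0427), Tecrl by 0.88 (adjusted p = 0.0459) and Fam151a by 0.84 (adjusted p = 0.0354).

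Further genes were lower in the Cx43 lines without overlap. Of these, Camsap3 and Gipc2 had values on only 3 of the 4 Cx32 null arrays, and Camsap3 on only 3 of the 4 Cx43 null arrays. Arhgap35, a GTPase-activating protein, was lower by -0.81 ± 0.15 (adjusted p = 0.0308). It read 1.34 to 2.09 in Cx43 null, 1.27 to 1.65 in heterozygous and 2.11 to 2.53 in Cx32 null brain. Camsap3, which binds the minus ends of microtubules, was lower by -0.74 ± 0.15 (adjusted p = 0.0469). Its arrays lay at 1.10 to 1.33 in Cx43 null, 1.35 to 1.77 in heterozygous and 1.95 to 2.39 in Cx32 null brain. Scaffolds and adaptors were Gipc2, a PDZ-domain protein, at -0.88 (adjusted p = 0.0354, but -0.36 and 0.636 where spots with at least 2 of 4 values per group were kept), Mapkbp1, a binding partner of JNK signalling, at -0.64 (adjusted p = 0.0354), and Sh2b3, which restrains cytokine receptors, at -0.62 (adjusted p = 0.0456).

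Slc40a1, ferroportin, the exporter of cellular iron, was lower by -0.68 ± 0.13 (adjusted p = 0.0354). It read -2.02, -1.29, -1.73 and -1.46 in Cx43 null brain, -1.10, -1.25, -1.15 and -1.08 in Cx43 heterozygous brain and -0.77, -0.68, -0.69 and -0.70 in Cx32 null brain, so the 3 groups lay in order without overlap. The null and heterozygous groups were not called apart (-0.48, adjusted p = 0.109). Pms2, of DNA mismatch repair, was lower by -0.73 (adjusted p = 0.0456), and Cyp2f2, a cytochrome P450 of lung and liver, by -0.87 (adjusted p = 0.0487). Cyp2f2 was the only call among 37 measured liver and plasma genes, beside 0.855% called over all transcripts. Tsacc, a co-chaperone of a testis kinase, stood at -0.77 (adjusted p = 0.0354) and Fam32a at -0.85 (adjusted p = 0.0294). The transcripts 1810037I17Rik and 4930523C07Rik stood at -0.78 (adjusted p = 0.0271) and -0.60 (adjusted p = 0.0356).

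Few of these calls held whichever array was left out. Of the 55 named genes, 4 passed in all 12 fits that left out 1 array, namely Hddc3, Nav3, Llgl2 and Muc1. With Cx32 null replicate 2 left out, those 4 alone passed, while all 55 kept their sign and the differences were 0.791 to 1.18 times the full ones. The genes with the most losses, such as Sh2b3 and Pms2, passed in 1 of the 12 fits.

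**Figure D2:**
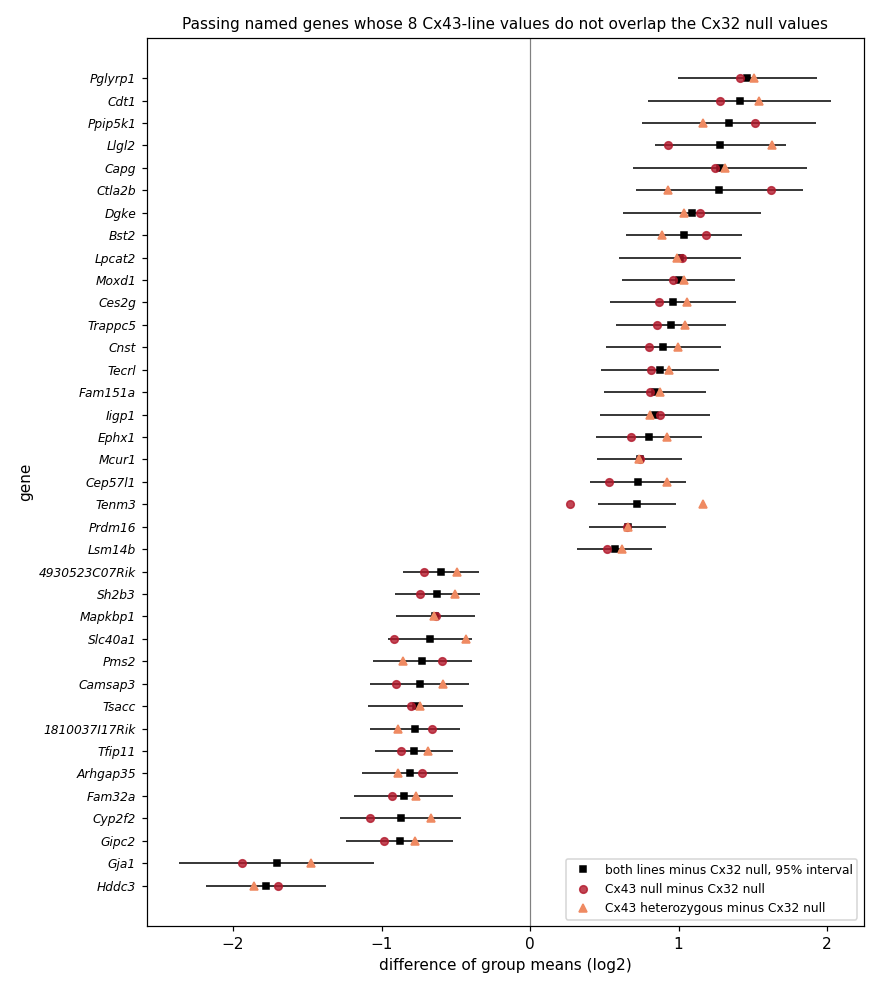
Differences of group means in log2 units, on the horizontal axis, with 95% intervals from limma and each line's own difference from Cx32 null. The genes are the 37 passing named genes whose Cx43-line values did not overlap the Cx32 null values, with missing values left out. Both lines lie on the same side of 0 throughout, which follows from the choice of genes without overlap. Hddc3 at -1.78 and Pglyrp1 at 1.46 are the ends, and in Tenm3 the Cx43 null value of 0.27 and the heterozygous value of 1.17 lie apart.

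The mean of the Cx43 lines covers genes in which they differed. Cx43 null and Cx43 heterozygous brain differed from each other in 388 of the 14500 transcripts, which is 2.68%, with 225 higher (1.55%) and 163 lower (1.12%) in null brain. That direction depends on scaling: 58.0% of the calls were higher in null brain after centring on medians, 49.4% after cyclic loess and 23.3% of 425 calls on the values as deposited. The count was 73 without Cx43 null replicates 1 and 3, and 130 to 545 when 1 array was left out, lowest without Cx43 null replicate 2. Null brain differed from Cx32 null in 20 transcripts (0.138%) and heterozygous brain in 293 (2.02%). Both comparisons share the Cx32 null arrays, and the difference between the counts was not tested.

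Of the 55 named genes, 13 were called between the Cx43 lines. Heterozygous brain lay farther from Cx32 null in 11 of them and null brain in 2. In those 11 the heterozygous difference from Cx32 null was 1.15 to 2.48 in size and the null difference 0.05 to 0.49. Passing both contrasts favours genes in which a line lies far from Cx32 null and the other near it. These sizes therefore follow in part from the selection, and the split over all transcripts called between the lines was not counted. The 2 contrasts share one estimate of spread per gene. Apart from Nav3, Ednrb, Tenm3 and Tuba1b, these genes are named because of this call, after their values were seen. With Panx1 there were 14 such genes. Of these, 10 were called in all 12 fits that left out 1 array, the others being Meioc, Slc45a1, Rubcnl and Tuba1b. Without Cx43 null replicates 1 and 3, 8 were called: Nav3, Ednrb, Vash2, Muc1, Acaa2, Hps1, Tenm3 and Tuba1b.

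Nav3, neuron navigator 3, which guides microtubules at the tips of growing neurites, was lower in heterozygous brain than in the other 2 lines. It read -0.85, -0.70, -0.47 and -0.72 there, against 1.66, 1.68, 1.27 and 1.91 in Cx43 null and 1.55, 2.08, 1.88 and 1.68 in Cx32 null brain. The null and Cx32 null arrays overlapped, and all heterozygous arrays lay below them. Null minus heterozygous was 2.32 ± 0.17 (adjusted p = 1.97e-05), heterozygous minus Cx32 null was -2.48 (adjusted p = 7.9e-06) and null minus Cx32 null was -0.17 (adjusted p = 0.71). The average over both lines, -1.32 ± 0.14 (adjusted p = 0.000972), is therefore the mean of unlike values. Without Cx43 null replicates 1 and 3, null minus heterozygous was 2.48 (adjusted p = 0.000364). The wild-type arrays read 0.70, 2.32, 2.17 and 1.73.

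Ednrb, the endothelin B receptor of astrocytes and radial glia, had the same order. Its heterozygous arrays read -0.68, -0.79, -0.62 and 0.54, below Cx43 null at 1.57, 1.77, 1.41 and 1.88 and Cx32 null at 1.61, 1.79, 1.78 and 1.66. Null minus heterozygous was 2.05 ± 0.24 (adjusted p = 0.00109), and null minus Cx32 null was -0.05 (adjusted p = 0.946). The average of -1.08 (adjusted p = 0.0354) kept its call in 2 of the 12 fits that left out 1 array. Vash2, which removes the terminal tyrosine of tubulin, read -0.09, 0.33, 0.26 and -0.11 in heterozygous brain, 1.83, 2.29, 0.93 and 1.70 in Cx43 null and 2.14, 1.97, 2.13 and 2.37 in Cx32 null brain. Null minus heterozygous was 1.59 (adjusted p = 0.00482). Hps1, a subunit of a complex that builds lysosome-related organelles, followed at 0.92 (adjusted p = 0.0125).

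Other genes were higher in heterozygous brain than in Cx43 null brain. Muc1, a membrane mucin of epithelia, read -0.72, -0.95 and -1.12 there, without a value on replicate 1, against -3.004, -3.04, -2.77 and -2.97 in Cx43 null and -3.38, -3.02 and -3.46 in Cx32 null brain. Null minus heterozygous was -2.02 ± 0.17 (adjusted p = 0.000297). The wild-type arrays, at -0.58, -1.22 and -1.73, lay near the heterozygous ones, above both null lines. Meioc, a factor of meiotic germ cells, read -0.43, -0.44, -0.44 and -0.31 in heterozygous brain. On the arrays of the other lines with a value it lay at or below -1.78 (null minus heterozygous -1.70, adjusted p = 0.0137). Values were missing on Cx43 null replicate 2 and Cx32 null replicate 3. Acaa2, a thiolase of mitochondrial fat oxidation, differed by -1.43 (adjusted p = 0.00522) and Slc45a1, a glucose transporter of brain, by -1.14 (adjusted p = 0.0263). Fbxl18, of a ubiquitin ligase, differed by -1.49 (adjusted p = 0.0118) and Rubcnl, of autophagy, by -0.93 (adjusted p = 0.037). Of these, Rubcnl too had its wild-type mean, -0.70, near the heterozygous mean of -0.61 and above the null means of -1.55 (Cx43) and -2.02 (Cx32). The Meioc difference of both lines from Cx32 null, 1.31, was 0.86 without Cx32 null replicate 1 (adjusted p = 0.0677).

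Tenm3, a teneurin that matches pre- and postsynaptic partners, differed between the Cx43 lines. It read 1.73, 1.34, 1.40 and 1.31 in Cx43 null, 2.39, 2.44, 2.39 and 2.14 in heterozygous and 1.22, 0.97, 1.30 and 1.21 in Cx32 null brain. Null minus Cx32 null was 0.27 (adjusted p = 0.438) and null minus heterozygous -0.90 ± 0.14 (adjusted p = 0.00643). Null brain stood apart in Tuba1b, an alpha-tubulin, at 1.89, 1.23, 1.67 and 1.03 against 2.22 to 2.51 in heterozygous and 2.39 to 2.84 in Cx32 null brain. Its null minus heterozygous difference was -0.93 ± 0.18 (adjusted p = 0.0193). It also stood apart in Catsperd, of the sperm calcium channel, at 0.70 (adjusted p = 0.0165).

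**Figure D3:**
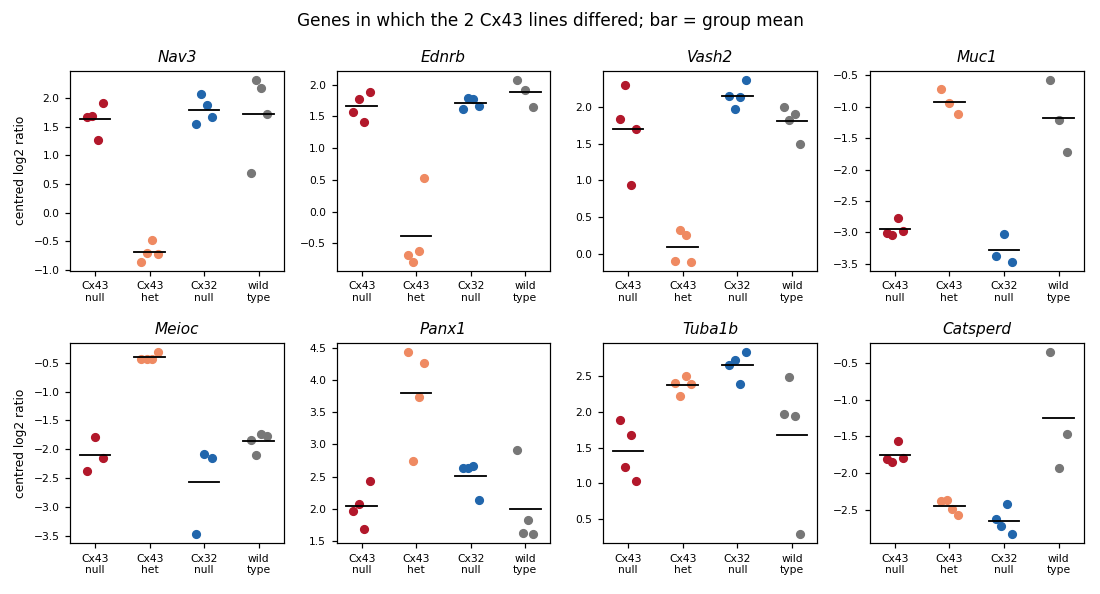
Levels of 8 genes called between the Cx43 lines on each array, as the log2 ratio after median centring, by group, with each point an array and each bar the mean over a group's arrays. The Cx43 heterozygous arrays stand apart from both null lines in Nav3, Ednrb, Vash2, Muc1 and Meioc, as in Nav3 at -0.85 to -0.47, and the Cx43 null arrays stand apart in Tuba1b and Catsperd.

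The largest difference among the 55 passing named genes, that of Myh14, a non-muscle myosin, is set aside. Its 2.26 ± 0.49 (adjusted p = 0.0498) comes from a spot in the displaced print block. The displaced arrays Cx43 null replicate 2 and Cx43 heterozygous replicate 4 read -1.60 and -2.15, against -0.19 to 0.74 on the other 6 arrays of these lines, and Cx32 null brain, with its own displaced array, read -2.81 to -2.06. Tfip11, a spliceosome factor with 1 of its spots in that block, stood at -0.78 (adjusted p = 0.0147) and did not pass with the block left out. It passed in 11 of the 12 fits that left out 1 array. Of 12 other settings it passed in 11, all but the one without the block.

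No list of cell type markers held more than 2 calls. Each list is described by its counts and its median beside those of all 14500 transcripts, which were 0.855% called, 13.6% with an unadjusted p under 0.05 and a median of -0.01. Of 24 measured genes of astrocytes and radial glia, Gja1 and Ednrb passed and both were lower, and the median was 0.02. The interval lay within 1 log2 unit of 0 for 21 of these 24. Fabp7, the fatty acid binding protein of radial glia, stood at 0.40 ± 0.16 (adjusted p = 0.292). Of 6 measured genes of oligodendrocytes and myelin, none passed, none had an unadjusted p under 0.05, and all 6 intervals lay within 1 log2 unit. Mbp, myelin basic protein, stood at 0.05 ± 0.17 (adjusted p = 0.935) and Pdgfra, the receptor of oligodendrocyte precursors, at -0.10 ± 0.26 (adjusted p = 0.908). None of 24 neuronal genes passed (median 0.01, 20.8% unadjusted).

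Other lists covered further cells resident in brain and cells that could be carried into the tissue. None of 14 measured red blood cell genes, 15 meningeal, 14 endothelial and mural, 11 choroid plexus and ependymal, and 11 skin and bone genes passed. None of 18 microglial and macrophage genes passed, with a median of 0.11. Ctss, a lysosomal protease of microglia, stood at 1.86 ± 0.44 (adjusted p = 0.0805), with group means of -2.82 in Cx43 null, -0.88 in heterozygous and -3.71 in Cx32 null brain. The largest median was that of the 22 skeletal muscle and heart genes, at 0.25. None of them passed, 22.7% had an unadjusted p under 0.05, all of those higher, and the array medians of that list ran from -2.53 to -2.04 in Cx43 null, -2.35 to -1.97 in heterozygous and -2.48 to -2.18 in Cx32 null brain. Their part in the results above was not tested. None of 7 sex-linked genes passed, with Xist at 0.14 ± 0.18 and Eif2s3y at -0.22 ± 0.41.

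Few pathway genes passed. Over all transcripts, 0.855% were called and 13.6% had an unadjusted p under 0.05. None of 59 cytosolic ribosomal protein genes passed and 1.69% had an unadjusted p under 0.05. None of 59 respiratory chain and ATP synthase genes, 32 genes of glycolysis and glucose uptake, 16 of cholesterol synthesis and uptake and 64 chaperones passed. The cholesterol genes had the lowest median of the lists with over 3 members, -0.14. The separate medians were -0.03 for Cx43 null and -0.41 for heterozygous minus Cx32 null. Of 63 genes of microtubules and motors, Tuba1b alone passed, while 9 were lower and 2 higher at an unadjusted p under 0.05. Tubb4b, a beta-tubulin, stood at -0.88 ± 0.23 (adjusted p = 0.106), Tubb5 at -0.43 ± 0.14 (adjusted p = 0.205) and Stmn1, which depolymerises microtubules, at -0.31 ± 0.13 (adjusted p = 0.316). These are picks from the lower genes, made outside the rule for named genes. The median of the list was -0.10, and 17.5% of it had an unadjusted p under 0.05, beside 13.6% of all transcripts. Of 45 genes of axon guidance and adhesion, Nav3 alone passed. None passed among 24 genes of synaptic vesicles and release, 14 of glutamate, GABA and glycine signalling, 29 ion channels, 38 of calcium and purine signalling and 59 of Wnt, Notch, BMP, FGF and hedgehog signalling.

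**Figure D4:**
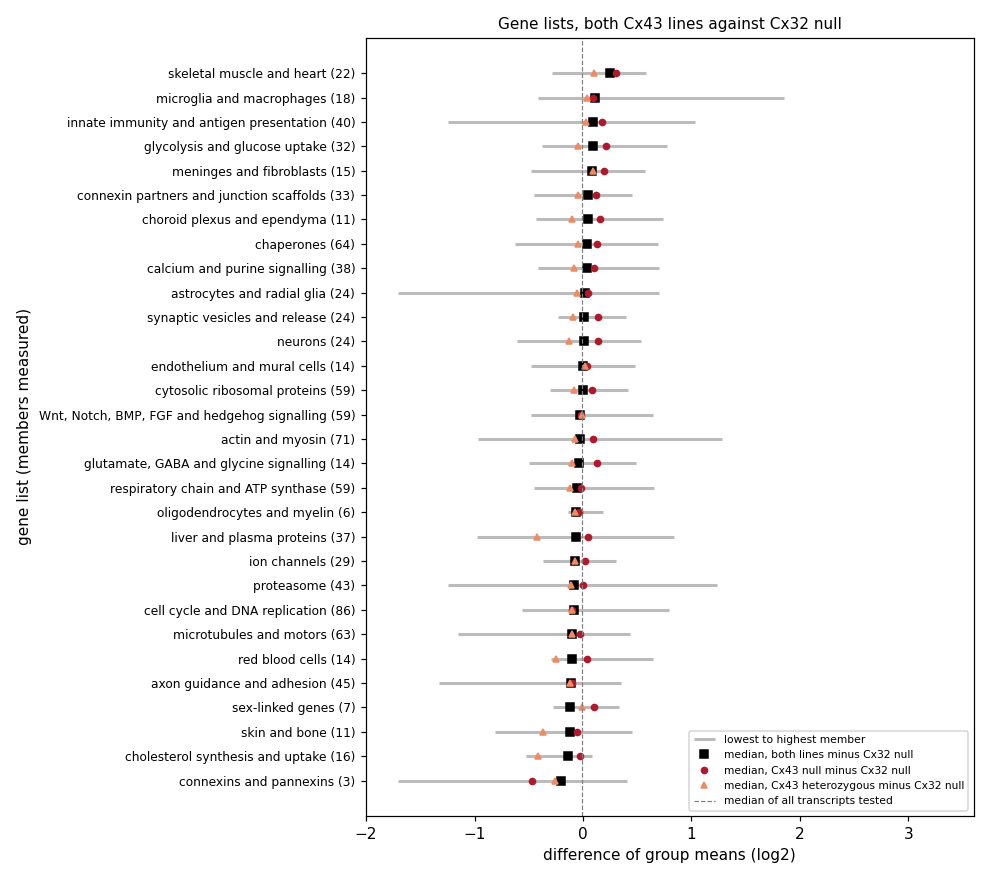
Median difference in log2 units of each gene list, with the number of measured members, for both Cx43 lines, Cx43 null alone and Cx43 heterozygous alone minus Cx32 null; grey bars run from the lowest to the highest member and the dashed line is the median of all transcripts. For both lines together, the medians of lists with over 3 members lie between -0.14 and 0.25; the heterozygous medians reach -0.43, in liver and plasma proteins, and the null medians 0.30, in skeletal muscle and heart.

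The wild-type arrays serve as a description only, since they were not fitted. Over the 55 named genes, the wild-type mean lay nearer the mean of the Cx43 lines in 45 and nearer Cx32 null in 10. That is 81.8%, beside 57.0% for all named genes. The 55 were chosen by their gap from the Cx32 null mean, which rests on fewer arrays and is so more often the extreme mean. All named genes are therefore not a like baseline. Among the 55, the wild-type mean lay above both means in 18, below both in 11 and between in 26. Hddc3 and Pglyrp1 belong to the 45: the Cx43 lines were 0.08 and 0.03 from the wild-type mean, and Cx32 null brain 1.86 and -1.44. Gja1 was below wild type on both sides, by -3.16 in the Cx43 lines and -1.46 in Cx32 null brain. Mapkbp1 and Tenm3 were nearer on the Cx32 null side, at 0.03 and -0.05 from the wild-type mean, against -0.61 and 0.67 for the Cx43 lines. Array by array, the correlation with the wild-type mean was 0.705 to 0.909 for Cx43 null, 0.72 to 0.752 for heterozygous and 0.755 to 0.768 for Cx32 null, and its part in these distances was not tested.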

How the data were processed

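The authors deposited 1 log ratio per spot and array, read here as log2; the log base, numerator and normalization within arrays are not given in the sources used here. Empty cells were kept missing. A single symbol could be given to 18511 of 28704 spots (18267 through the gene identifier, 244 as the platform gives it), 937 list several and 9256 none. Spots with at least 3 of 4 values per group were kept (20319), and spots of 1 gene were averaged. The 3 group means were fitted to 12 arrays with limma 3.58.1 (lmFit, eBayes, 2-sided, Benjamini-Hochberg) in R 4.3.3. On simulated data of 14500 transcripts, 94 of 100 changes of 1 log2 unit and 99 of 100 of 2 were recovered for both Cx43 lines minus Cx32 null. The simulated arrays had independent normal noise and the same change in both Cx43 lines, without deviant arrays or a displaced print block. These counts check the fit and do not give the sensitivity of the comparison on the real arrays. Same-numbered arrays correlated -0.255 to 0.225 in their deviations from group means (median -0.008), and differently numbered ones -0.197 to 0.194 (median 0.007). No pairing by number was seen, but deviations within groups of 4 arrays cannot show that samples were unpaired. Named genes are all measured connexins and pannexins, the 15 largest passing rises and 15 falls without overlap and outside stretches of spots out of step, up to 3 passing members per list and direction, the 5 highest and 5 lowest null minus heterozygous differences among the former, and up to 3 passing neighbours of Gja1 and Gjb1. Members and lists were chosen with earlier results of these data known. Alternatives covered scaling, missing values, fitted samples, replicate block, spread, spots and single arrays.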

Additional observations from a re-analysis of the deposited data

Results flagged for a closer look

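On single arrays, 10 of 144 gene and group combinations had 1 value far from the others of its group, where chance gives about 1 in 20. In Cx43 heterozygous brain these were Acaa2 on replicate 2 (-0.318), Moxd1 on replicate 2 (0.182), and on replicate 4 Ednrb (0.536), Meioc (-0.313) and Myh14 (-2.145, a spot of the displaced print block). In Cx43 null brain they were Fam32a on replicate 4 (0.634) and Mcur1 on replicate 3 (-1.29). In Cx32 null brain they were Lsm14b on replicate 1 (1.283), Mcur1 on replicate 3 (-1.441) and Panx1 on replicate 4 (2.13).

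Among the 55 named genes that passed for both lines, and Panx1, 14 differed by the test of Cx43 null minus Cx43 heterozygous in limma. Over all 14500 transcripts that test called 388 (2.68%). Null brain was higher in Nav3 (2.317), Ednrb (2.047), Vash2 (1.593), Hps1 (0.922) and Catsperd (0.701). Null brain was lower in Muc1 (-2.017), Panx1 (-1.756), Meioc (-1.698), Fbxl18 (-1.492), Acaa2 (-1.433), Slc45a1 (-1.139), Rubcnl (-0.932), Tuba1b (-0.931) and Tenm3 (-0.897).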

How the results depend on the processing

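For both Cx43 lines minus Cx32 null, the 124 calls became 59 on the values as deposited (all 59 among the 124), 63 with 4 of 4 values per group, where 11453 transcripts were tested and 55.6% of calls were higher against 70.2%, 52 with all 16 arrays fitted, 39 without Cx43 null replicates 1 and 3 (chosen after seeing the data), and 10 to 125 with 1 array left out, 10 without Cx32 null replicate 2. With the replicate number as a block there were 34, and 10 of the 55 named genes passed. Whether the numbers pair samples is not known. Quantile scaling gave 137, cyclic loess 130, array weights 129, a robust prior 111, at least 2 of 4 values 158, each spot on its own 144, and the print block left out 120. For Cx43 null minus heterozygous, the 388 calls became 210 with all 16 arrays, 224 with the block, 628 with each spot on its own (20319 tests), 73 without Cx43 null replicates 1 and 3, and 130 to 545 with 1 array left out. Without centring, the median over all transcripts of that contrast was -0.13 in place of 0.04, and 23.3% of calls were higher in null brain in place of 58.0%. Of the 55 named genes, 54 kept their sign under every setting; Iigp1 turned to -0.378 with at least 2 of 4 values, where further spots enter its mean, and Gipc2 moved to -0.36 there. The cause of the other changes was not tested. No intensities were used, so signal over background is unknown.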
